A study of Xenopus tropicalis with 17 samples.

Results

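The DEAD and DEAH box RNA helicase genes are described here across stage and sf3b4 genotype in whole embryos of the frog Xenopus tropicalis. They were found by name, as genes called ddx or dhx followed by a number and an optional letter, without ddx4 and ddx25. A gene was kept when it had a count of 10 or more in at least 2 libraries. Of 26531 genes counted, 48 had such a name and 47 were kept. All 47 also passed the filter on low counts that preceded the tests. The name left out was ddx60, with 0 to 10 counts per library and 10 counts in 1 library. The kept gene nearest the limit was ddx58, with 0 to 67 counts per library and 10 or more counts in 8 libraries.

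DEAD and DEAH box proteins are named after a short run of amino acids in the motif that hydrolyses ATP. DEAD box proteins pry apart short RNA duplexes or strip proteins from RNA, whereas DEAH box proteins usually move along single-stranded RNA and pull on the complexes in their way. Such enzymes drive the successive rearrangements of the spliceosome, remodel the ribosomal RNA precursor, and act in messenger RNA export, translation and decay. SF3B4 is a subunit of SF3b, the part of the U2 small nuclear ribonucleoprotein that holds the branch site of an intron, and its loss in embryos is studied as a model of a human craniofacial disorder. DDX46 and DDX42 are the helicases known to bind SF3b, and DHX16 remodels the activated spliceosome so that SF3b lets go of the branch site.

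Embryos were null, heterozygous or wild type for sf3b4 by the labels and were collected at stages 15, 25 and 35. Each library was made from a pool of 5 whole embryos raised in a culture medium labelled NAM, with polyA selection and strand-specific preparation. The 9 groups of stage and genotype had 2 pools each, except the stage 15 null group with 1 pool. The labels state neither the mutation in sf3b4 nor whether pools came from one clutch, so p-values measure the spread between pools only.

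Library totals ran from 11714437 to 21639041 counts. The transcript of sf3b4 itself was at 74.8 to 152 CPM (counts scaled to a common library size) in null pools, 64.6 to 224 CPM in heterozygous pools and 83.6 to 287 CPM in wild type pools. These ranges mix the stages, with 1 null pool at stage 15, and sf3b4 fell over both wild type steps (log2 changes of -0.78 and -0.61). Within a stage it was not called between null and wild type embryos (edgeR quasi-likelihood test, adjusted p of 0.433 at stage 25 and 0.394 at stage 35), and over all stages together it was lower in null embryos (log2 difference -0.42, adjusted p = 0.0252). Of 27 markers of embryonic tissues, 26 were found by name, and all 26 had 10 or more counts in at least 1 library. The epidermal marker krt5.7 was not found under that name. On the first principal component of all genes, which orders the libraries by stage, replicate 2 of the stage 15 wild type group was placed at -129.4, against -166.2 to -157.3 for the other stage 15 libraries. The stage 35 null pools lay at 128.4 and 135.2 on it, nearer the earlier stages than the stage 35 heterozygous pools at 150.3 and 155.6 and the stage 35 wild type pools at 151.8 and 152. In whole embryos, fewer cells of a type and less RNA per cell cannot be told apart.

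The helicase share of library counts fell from stage to stage in wild type embryos. CPM is a scaled share of a library, so RNA per embryo was not measured. The summed level of the 47 genes averaged 12060 ± 813 CPM at stage 15, 8862 ± 332 CPM at stage 25 and 6144 ± 478 CPM at stage 35 (SD, n = 2 pools each). Without scaling they held 1.097 and 1.096% of counts at stage 15, 0.901 and 0.88% at stage 25, and 0.64 and 0.709% at stage 35. The genes ddx39a and ddx5 together held 37.3 to 54.8% of the helicase counts of a library. Without them, a subset chosen after seeing the data, the other 45 genes summed to 5615 ± 126, 4755 ± 51.4 and 3313 ± 181 CPM over the stages. The genes were grouped by known role into 14 of pre-mRNA splicing, 15 of ribosome biogenesis, 8 of export, translation and decay, and 10 others. The splicing genes had summed levels of 8310 ± 762, 5578 ± 343 and 3991 ± 426 CPM over the stages, and without ddx39a and ddx5 they had 1870.2 ± 79.5, 1470.4 ± 61.5 and 1160.2 ± 128 CPM. The genes of export, translation and decay had 1534 ± 173, 1005 ± 29.8 and 741.7 ± 6.43 CPM. Ribosome biogenesis genes held until stage 25 and then dropped, with 1867 ± 72.1, 1998 ± 14.8 and 1196 ± 33.9 CPM. Among splicing genes 11 of 14 had their highest wild type mean at stage 15, whereas 10 of 15 ribosome biogenesis genes had it at stage 25. The matching shares of all genes tested were not computed, so these counts have no background. The difference in course between the role groups was not tested.

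**Figure D1:**
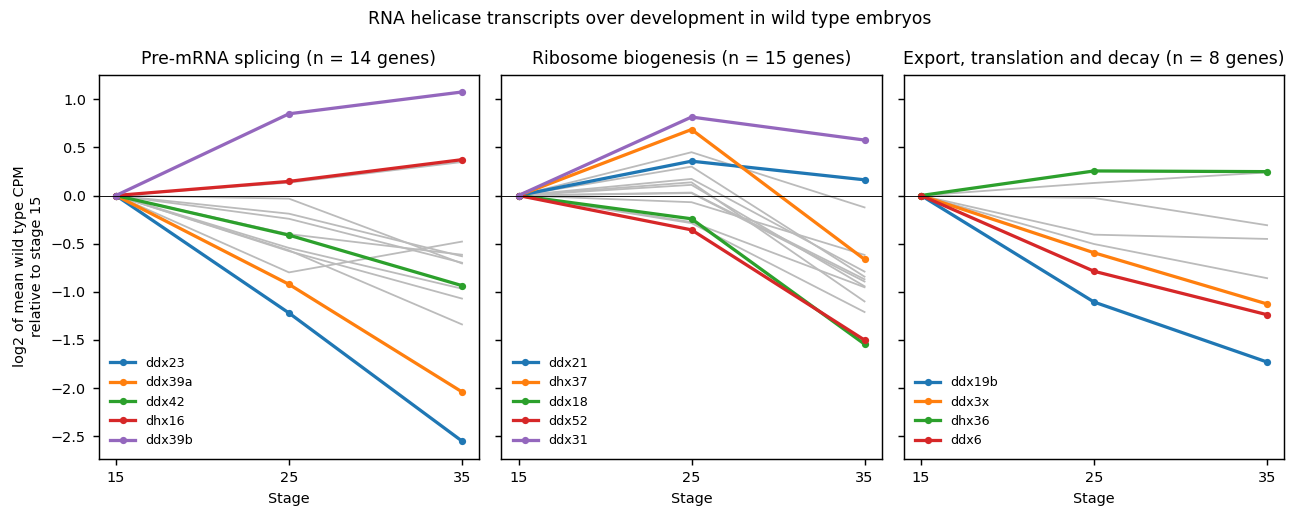
Mean wild type level of each helicase gene at stages 25 and 35 relative to stage 15, as log2 of the mean CPM of 2 pools, in panels for splicing, ribosome biogenesis, and export, translation and decay. Grey lines are the other genes of each group. Most splicing lines descend throughout, whereas most ribosome biogenesis lines stay near 0 or above it at stage 25 and fall by stage 35.

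Between stages 15 and 25 in wild type embryos, 13 of 47 helicase genes were called at an adjusted p under 0.05, or 27.7% against 40.3% of all 17742 genes tested. Higher at stage 25 were 3 genes, or 6.38% against 23.4% of all genes. Lower were 10, or 21.3% against 16.9%. The median log2 change was -0.189 over the helicases and 0.071 over all genes tested. Of the splicing genes 7 fell and none rose, of the ribosome biogenesis genes 2 rose and none fell, and of the export, translation and decay genes 3 fell and none rose.

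The product of ddx23 exchanges U1 for U6 at the 5′ splice site. The gene had 31.8 and 37.2 CPM at stage 25, against 106.6 and 54.1 CPM at stage 15, so the stage 15 pools were far apart but both above the later ones (log2 change -1.22, edgeR adjusted p = 0.00371). It was not called without the first stage 15 wild type pool. The gene of the nuclear pore export helicase, ddx19b, fell with a log2 change of -1.11. Lower as well was ddx39a at -0.92, an mRNA export helicase gene that was counted here in the splicing group. So were ddx17, a splicing and transcription cofactor, at -0.80, and ddx6, which represses translation and promotes decapping, at -0.79. Higher at stage 25 were dhx40 at 0.95, ddx31 at 0.82 and dhx37, an enzyme of small ribosomal subunit assembly, at 0.69. Calls in this step moved with single pools. Leaving out the first stage 15 wild type pool gave 4 calls, all lower. Of these, ddx17, ddx19b and ddx39a were among the 13 and ddx20 was not. Leaving out the second stage 15 wild type pool, which stood apart, gave 19, of which 8 were higher. Leaving out the first stage 25 wild type pool gave 7. The part of pool spread was not tested apart from the smaller number of pools. Shares of all genes are not given for these counts.

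From stage 25 to stage 35 the decline was broad. In wild type embryos 26 helicase genes were called, or 55.3% against 47.2% of all genes. Lower at stage 35 were 25 of 47, or 53.2% against 22.5%, and higher was 1, or 2.13% against 24.7%. The median log2 change was -0.456 over the helicases and 0 over all genes tested. Of 15 ribosome biogenesis genes 13 fell, the exceptions being ddx21 at -0.19 and ddx31 at -0.24. Of 14 splicing genes 9 fell, and of 8 genes of export, translation and decay 2 fell.

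Ribosome biogenesis genes and ddx23 fell most. The rRNA processing helicase gene dhx37 had 38.7 and 35.7 CPM at stage 35, against 98.8 and 90.6 CPM at stage 25. The groups were far apart for its spread (log2 change -1.35 ± 0.18 SE, edgeR adjusted p = 3.29e-05). For ddx18, a nucleolar helicase of large subunit assembly, the pools had 100.1 and 109 CPM at stage 35, against 274 and 241 CPM at stage 25 (log2 change -1.30). The log2 changes of ddx23, ddx54 and ddx52 were -1.33, -1.24 and -1.14, and ddx54 and ddx52 encode nucleolar helicases of ribosome assembly. The single gene that rose was ddx58, which encodes the cytoplasmic viral RNA sensor RIG-I. It had 42 and 24 counts in the stage 35 pools, against 2 and 0 counts in the stage 25 pools, and so was at least 12.9-fold higher when stage 25 is set at a floor of 3 counts per library. Outside stage 35, ddx58 reached 10 counts only in the first null pool (15) and second heterozygous pool (10) of stage 25. It thus passed the low count filter mainly through stage 35, so its rise there is not independent of that filter. In heterozygous and null embryos this step was not called for ddx58 by edgeR as reported.

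**Figure D2:**
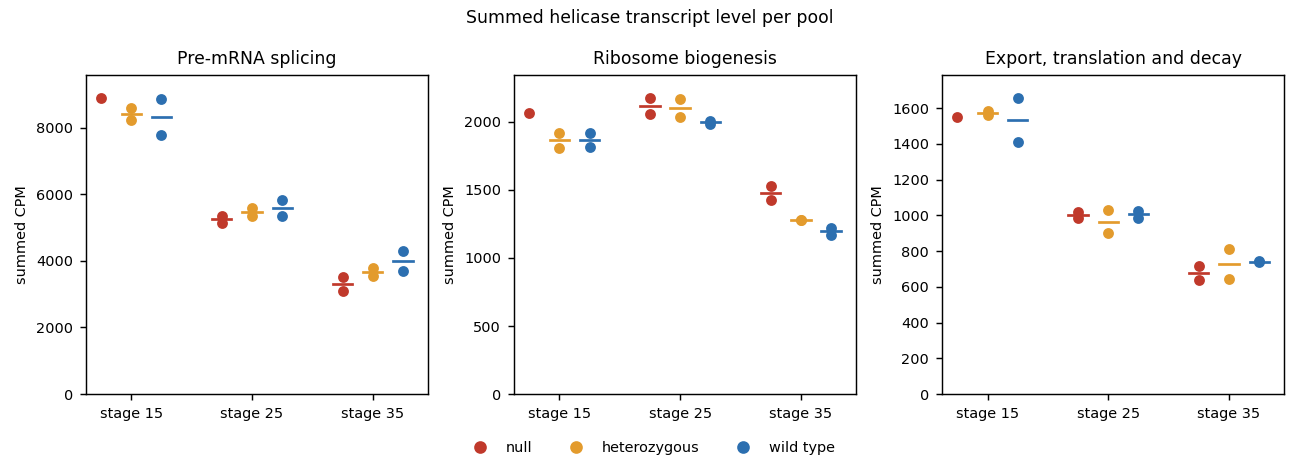
Summed CPM of the helicase genes of 3 role groups in every pool, by stage and genotype, with horizontal lines at group means. In the ribosome biogenesis panel the stage 35 null pools, at 1429 and 1526 CPM, lie above the heterozygous pools at 1279 and 1281 and the wild type pools at 1172 and 1220. The gene ddx21, not called there by edgeR, made up a large part of these sums. It had 630 and 581 CPM in null pools, 498 and 498 CPM in heterozygous pools, and 433 and 460 CPM in wild type pools. The stage 35 splicing sums were 3085 and 3520 CPM in null pools, below all others. Heterozygous pools had 3547 and 3781 CPM and wild type pools 3690 and 4292 CPM. A large part of these splicing sums came from ddx5. It had 1403 and 1213 CPM in null pools, 1855 and 1687 CPM in heterozygous pools, and 1839.5 and 2189 CPM in wild type pools. The splicing sums without ddx5 alone are not given, so lower sums do not show that splicing helicases were lower as a group. Stage 35 sums of export, translation and decay were 639 and 716 CPM in null and 737 and 746 CPM in wild type pools. Heterozygous pools had 643 and 810 CPM.

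At stage 35 null embryos differed from wild type embryos in 8 of 47 helicase genes, or 17% against 9.75% of all genes. Higher in null embryos were 6, or 12.8% against 4.8%, namely the splicing genes ddx41 and dhx9, the ribosome biogenesis genes ddx18, ddx56 and ddx24, and ddx1. Lower in null embryos were ddx43 and ddx5, or 4.26% against 4.95%. With scaling by DESeq2 size factors the split was 5 higher and 3 lower, since ddx24 was lost and ddx42 was gained. Without the filter on low counts it was 4 higher and 5 lower, with libraries of that stage only 5 higher and 6 lower, and by the Wald test of DESeq2 7 higher and 5 lower. In each of these 3 settings ddx39b, ddx42 and dhx36 were also called. Shares of all genes called in these settings are not given, so their counts have no background. The median log2 difference was 0.0221 over the helicases and -0.0323 over all genes tested.

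**Figure D3:**
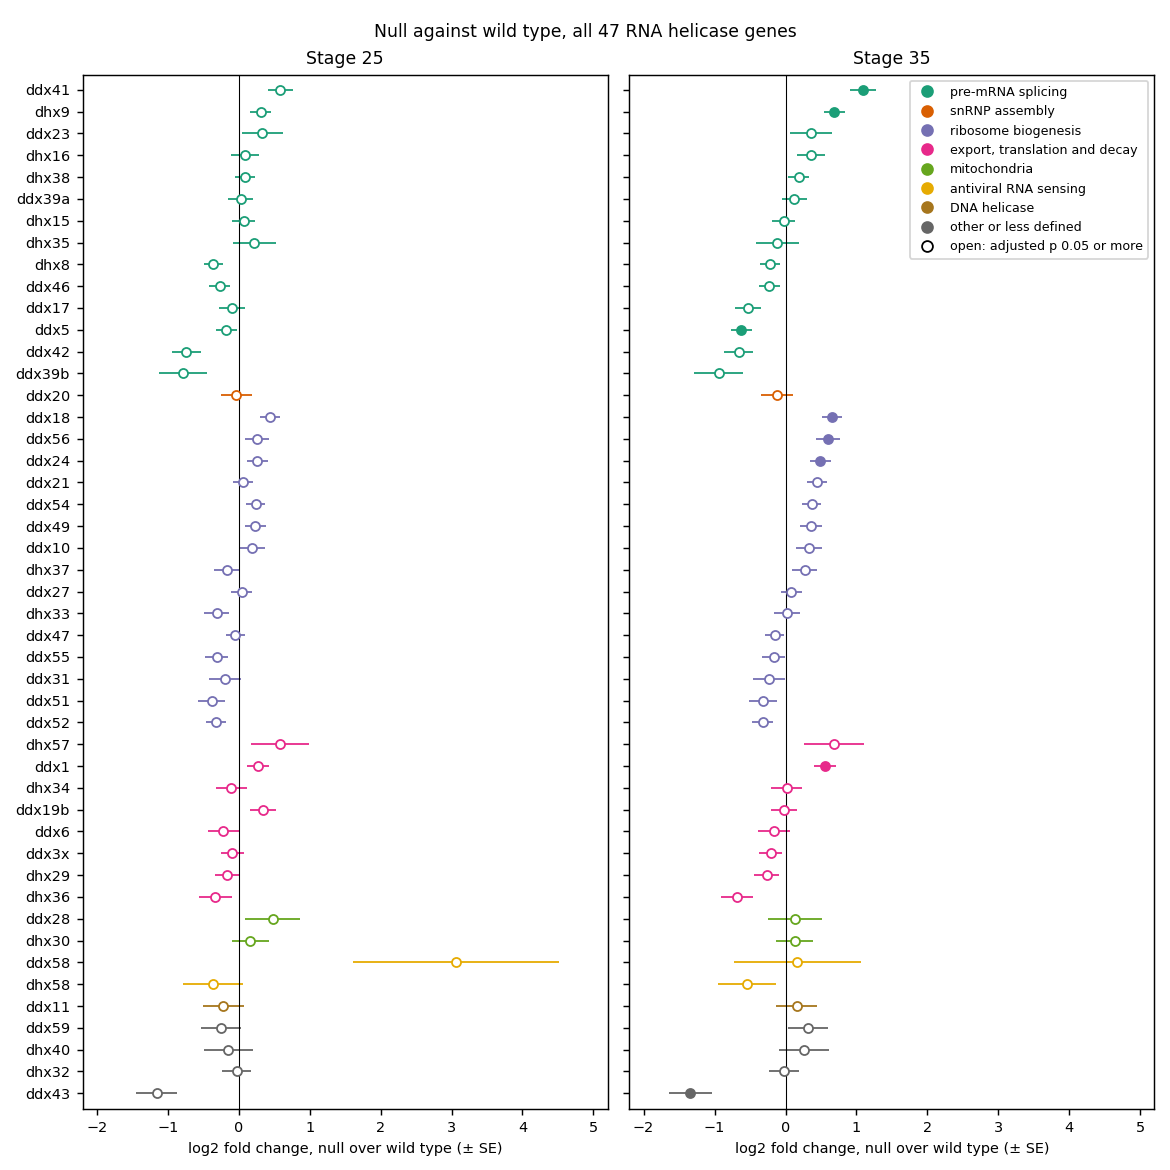
Log2 fold change, null over wild type, with SE bars, of all 47 helicase genes at stages 25 and 35, coloured by role and ordered within each role by the value at stage 35. Filled points are called at an adjusted p under 0.05, which 8 genes were at stage 35 and none at stage 25.

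DDX41 joins the catalytically active spliceosome, and inherited variants of the human gene predispose to myeloid neoplasms. At stage 35 ddx41 had 96.4 and 113 CPM in null pools, 55.8 and 50.8 CPM in heterozygous pools, and 45.8 and 52.5 CPM in wild type pools. Both null pools were far above the other 4 pools, which overlapped each other. The transcript was 2.13-fold higher in null than in wild type embryos (log2 difference 1.09 ± 0.18 SE, edgeR adjusted p = 0.00178). It was the one helicase gene whose stage 35 call held in all 9 alternative settings, with adjusted p from 7.13e-06 to 0.0353.

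DHX9 unwinds double-stranded RNA and RNA-DNA hybrids in the nucleus. The gene dhx9 had 198 and 185 CPM in null pools, 125 and 115 CPM in heterozygous pools, and 112 and 127 CPM in wild type pools at stage 35. Null pools were again above all others, and both heterozygous pools lay within the wild type range (log2 difference of null from wild type 0.68 ± 0.15 SE, edgeR adjusted p = 0.00942).

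The 3 ribosome biogenesis genes that rose act in the nucleolus, and studies in human cells or yeast place them in large subunit assembly. At stage 35 ddx18 had 164 and 166 CPM in null pools, 104 and 122 CPM in heterozygous pools, and 100.1 and 109 CPM in wild type pools (log2 difference of null from wild type 0.66, edgeR adjusted p = 0.0105). For ddx56 the pools had 62.9 and 77.2 CPM in null, 57.9 and 51.2 CPM in heterozygous, and 51 and 41.7 CPM in wild type embryos (0.59, adjusted p = 0.0382). In both genes the null pools lay above the 4 others. The pools for ddx24 had 78.5 and 74.2 CPM in null, 63.1 and 56.4 CPM in heterozygous, and 56 and 52.8 CPM in wild type embryos (0.49, edgeR adjusted p = 0.0485). The heterozygous pools of ddx56 and ddx24 were also above both wild type pools, by less. At stage 15 the null pool of ddx24, at 73.2 CPM, was below both wild type pools at 88.5 and 78.2 CPM.

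Over all 15 ribosome biogenesis helicases 3 rose at stage 35, or 20.0% against 4.8% of all genes, and none fell. A log2 difference above 0 was found in 10 of them, or 66.7% against 47.2% of all genes. The median over the 15 was 0.269, with a range from -0.32 for ddx52 to 0.66. Among splicing helicases 2 of 14 rose, or 14.3%, and 1 fell. Among those of export, translation and decay 1 of 8 rose, or 12.5%. Of 9 alternative settings, ddx18 was called in 5, ddx56 in 4 and ddx24 in 1. DDX1 belongs to the human tRNA ligase complex. The gene ddx1 had 89.7 and 90 CPM in null pools, 74.7 and 59.5 CPM in heterozygous pools, and 59.4 and 62.7 CPM in wild type pools (log2 difference of null from wild type 0.56, edgeR adjusted p = 0.0385). It was called in 3 of 9 alternative settings, with edgeR or DESeq2 adjusted p from 0.0195 to 0.182 over the settings.

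The lower side was led by ddx43, which in human is known from testis and tumours. It had 3.07 and 4.56 CPM in null pools, 5.28 and 3.89 CPM in heterozygous pools, and 8.08 and 11.2 CPM in wild type pools at stage 35. Null and heterozygous pools overlapped, and all 4 were below both wild type pools (log2 difference of null from wild type -1.34 ± 0.30 SE, edgeR adjusted p = 0.0111). The summed level of 3 germ cell markers (dazl, dnd1 and nanos1) at this stage was 12.7 and 2.1 CPM in null pools, against 3.17 and 1.14 CPM in wild type pools, with nanos1 at 0 to 0.0724 CPM. At stage 25 it was 19.6 and 12.3 CPM in null pools, against 30.3 and 42.9 CPM in wild type pools. Its part in the ddx43 result was not tested.

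DDX5 is an abundant nuclear helicase that works in splicing, transcription and microRNA processing together with its close paralogue DDX17. The gene ddx5 had 1403 and 1213 CPM in null pools, 1855 and 1687 CPM in heterozygous pools, and 1839.5 and 2189 CPM in wild type pools at stage 35. Null pools were below the 4 others (log2 difference of null from wild type -0.62, edgeR adjusted p = 0.0154). The gene ddx17 had a log2 difference of -0.53 with an adjusted p of 0.0773. Reads of close paralogues such as ddx5 and ddx17, or ddx39a and ddx39b, may have been split between them in counting.

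**Figure D4:**
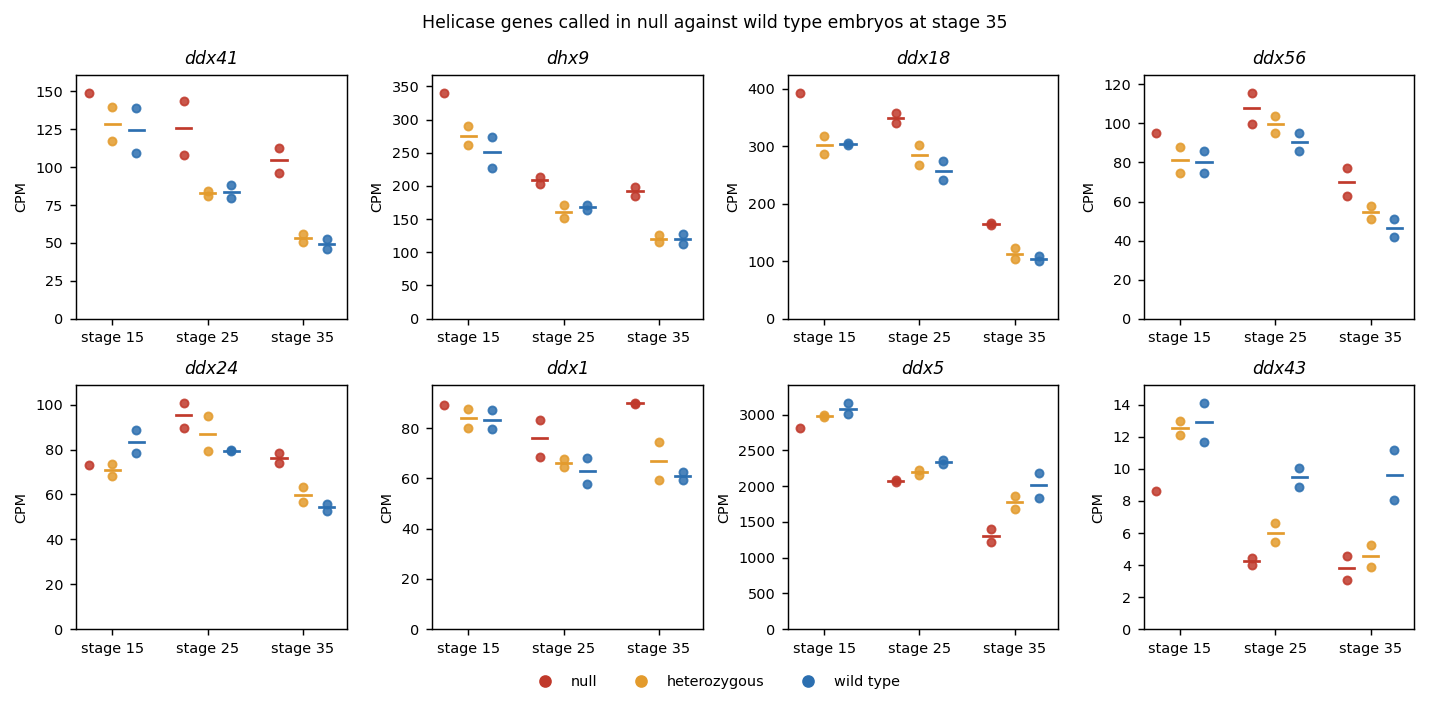
CPM of the 8 helicase genes called between null and wild type embryos at stage 35, in every pool by stage and genotype, with horizontal lines at group means. At stage 35 the null pools stand above all wild type pools for ddx41, dhx9, ddx18, ddx56, ddx24 and ddx1, and below them for ddx5 and ddx43.

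These 8 calls rested on few pools. The counts without 1 pool that follow are given without shares of all genes, so they have no background. Without the first stage 35 null pool 1 call was left, ddx41, and without the second null pool 2 were left, ddx41 and ddx43. Without the first wild type pool 4 were called (ddx41, ddx42, ddx43 and ddx5), and without the second wild type pool 2 (ddx41 and dhx9). Among the 26 tissue markers 4 were called higher in null embryos at stage 35 (myl1 of muscle, gata5 of endoderm, dnd1 of germ cells and spib of macrophages) and none lower. Of all genes 4.8% were higher and 4.95% lower. The part of these markers, and of the position of the null pools on the stage axis, in the helicase results was not tested.

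The wild type step and the stage 35 genotype comparison share the stage 35 wild type pools, so the levels are given side by side. For ddx41 the stage 35 null pools, at 96.4 and 113 CPM, were above the stage 25 wild type pools at 79.4 and 88.1 CPM. For dhx9 they were at 198 and 185 CPM, also above the stage 25 wild type pools at 171 and 164 CPM. For ddx18 they were at 164 and 166 CPM, below the stage 25 wild type pools at 274 and 241 CPM. For ddx56 they were at 62.9 and 77.2 CPM, below the stage 25 wild type pools at 85.9 and 94.9 CPM. For ddx24 they were at 78.5 and 74.2 CPM, below the stage 25 wild type pools at 79.3 and 79.6 CPM. For ddx1 they were at 89.7 and 90 CPM, above the stage 25 wild type pools at 57.9 and 68 CPM. The stage 35 null pools of the genes called lower were below the wild type pools of both stages. They were at 1403 and 1213 CPM for ddx5, against 2368 and 2305 CPM in stage 25 wild type pools. For ddx43 they were at 3.07 and 4.56 CPM, against 8.88 and 10.1 CPM. Within null embryos from stage 25 to stage 35, ddx18 fell with a log2 change of -1.08 (edgeR adjusted p = 3.86e-05), whereas ddx41 at -0.27 and dhx9 at -0.12 were not called (edgeR adjusted p of 0.231 and 0.53).

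Among the SF3b-linked helicases, ddx42 was low in null embryos at each stage. At stage 15 it had 191 CPM in the null pool, 216 and 250.0 CPM in heterozygous pools, and 236 and 293 CPM in wild type pools. At stage 25 it had 144 and 94.5 CPM in null pools, 148 and 178 CPM in heterozygous pools, and 202 and 195 CPM in wild type pools. At stage 35 it had 86.3 and 88.3 CPM in null pools, 119.7 and 98.6 CPM in heterozygous pools, and 121 and 155 CPM in wild type pools. The null pools were below all heterozygous and wild type pools at every stage, and at stages 25 and 35 each heterozygous pool was below each wild type pool. Within a stage the difference of null from wild type was not called by edgeR as reported (log2 differences of -0.74 and -0.66 at stages 25 and 35, edgeR adjusted p of 0.082 and 0.0519). It was called lower in 3 of 9 alternative settings at stage 25, with edgeR or DESeq2 adjusted p from 0.0176 to 0.435 over the settings, and in 5 of 9 at stage 35, with 0.016 to 0.373.

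The gene ddx46, whose yeast counterpart lets the U2 particle engage the branch site, had 183 and 168 CPM in null pools, 165 and 167 CPM in heterozygous pools, and 189 and 221 CPM in wild type pools at stage 35. Null and heterozygous pools were close together below the wild type pools, and the difference of null from wild type was not called (log2 difference of null from wild type -0.23, edgeR adjusted p = 0.389). At stage 15 the null pool, at 357 CPM, was above both wild type pools at 344 and 291 CPM. The gene dhx16 had 52.4 and 45 CPM in null pools, 38.3 and 41.7 CPM in heterozygous pools, and 37.1 and 39.1 CPM in wild type pools at stage 35 (log2 difference of null from wild type 0.35, edgeR adjusted p = 0.283).

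DDX39B is needed early in spliceosome assembly and again in export. The gene ddx39b had 79.4 and 69.6 CPM in null pools, 129 and 93.3 CPM in heterozygous pools, and 119 and 168 CPM in wild type pools at stage 35. Null pools were below all others, and the difference of null from wild type was not called by edgeR as reported (log2 difference -0.94, edgeR adjusted p = 0.0947). It was called lower in 3 of 9 alternative settings, with edgeR or DESeq2 adjusted p from 0.00286 to 0.465 over the settings. Its log2 difference, with those of dhx36, a helicase that resolves G-quadruplexes, at -0.68, and dhx57 at 0.68, was the largest in size among uncalled helicase genes at this stage. The other splicing genes were also not called there, with log2 differences of 0.36 for ddx23, 0.18 for dhx38, which acts between the steps of splicing, 0.12 for ddx39a, -0.024 for dhx15, which takes the spent spliceosome apart, -0.12 for dhx35 and -0.22 for dhx8, which releases the spliced mRNA.

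At stage 25 no helicase gene was called between null and wild type embryos by edgeR, against 1.78% of all genes, of which 0.789% were higher and 0.986% lower. An unadjusted p under 0.05 was found for 8 of 47 (ddx18, ddx39b, ddx41, ddx42, ddx43, ddx52, dhx8 and dhx9), or 17% against 13.7% of all genes. The Wald test of DESeq2 called 3 (ddx18 higher, ddx42 and ddx43 lower), with no share of all genes given. The gene ddx43 had 4.45 and 4.03 CPM in null pools, 5.43 and 6.62 CPM in heterozygous pools, and 8.88 and 10.1 CPM in wild type pools, in that order without overlap (log2 difference of null from wild type -1.16, edgeR adjusted p = 0.0588). For ddx41 the pools had 144 and 108 CPM in null, 84.4 and 80.9 CPM in heterozygous, and 79.4 and 88.1 CPM in wild type embryos (0.59, edgeR adjusted p = 0.113). Null pools of ddx41 were above the 4 others here too.

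The effect of the null genotype was not shown to differ between stages 25 and 35. None of the 47 helicase genes was called in the test of that difference, against 0.141% of all genes, and 1, ddx5, had an unadjusted p under 0.05, or 2.13% against 8.8% of all genes (difference of log2 differences -0.45, edgeR adjusted p = 0.552). The Wald test of DESeq2 also called 0.

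Averaged over the 3 stages in an additive fit to all 17 libraries, 12 of 47 helicase genes were called between null and wild type embryos, or 25.5% against 11% of all genes. Higher in null embryos were 6, or 12.8% against 5.01%. They were ddx41 at a log2 difference of 0.72, ddx18 at 0.50, dhx9 at 0.50, ddx56 at 0.37, ddx1 at 0.34 and ddx54 at 0.26. Lower were also 6, or 12.8% against 6.01%. They were ddx43 at -1.06, ddx39b at -0.79, ddx42 at -0.64, ddx5 at -0.33, ddx52 at -0.29 and dhx8 at -0.25. With DESeq2 size factors the split was 8 higher and 5 lower. For this and the other alternative settings of the fit, shares of all genes are not given, so their counts have no background. The calls of ddx41, ddx18, dhx9, ddx43, ddx39b and ddx42 held in all 22 alternative settings, with edgeR or DESeq2 adjusted p of at most 0.0413, the highest being that of ddx39b. Leaving out 1 stage 35 library moved the count most, to 7 or 6 without the first or second null pool and to 7 without the second wild type pool.

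**Figure D5:**
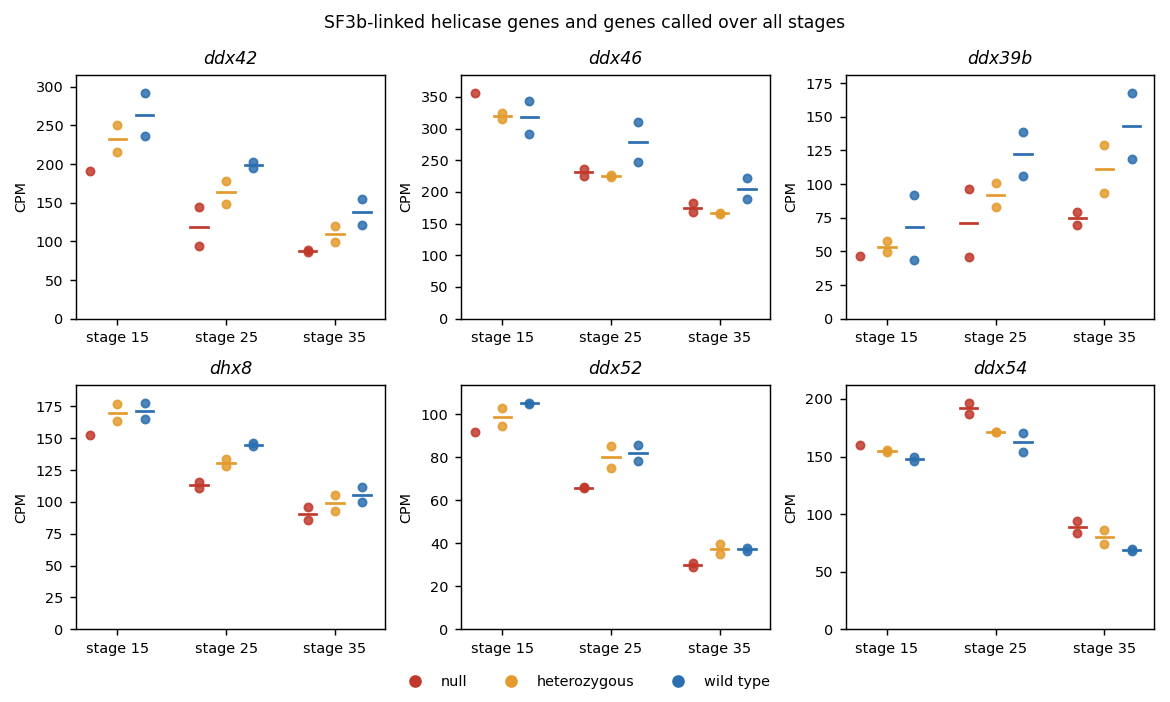
CPM of ddx42 and ddx46, which bind SF3b, and of ddx39b, dhx8, ddx52 and ddx54, which were called over all stages together, in every pool by stage and genotype with horizontal lines at group means. Null pools lie below both wild type pools at each stage for ddx42, dhx8 and ddx52, and above them for ddx54, whereas ddx46 and ddx39b overlap or turn round at stage 15.

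The pools of the additive fit were also compared by their order alone. Since the pools are the same, this order gives no independent support for the calls of that fit. The shares of all genes were not matched to the helicases for expression level. At all 3 stages every null pool was above both wild type pools in 7 helicase genes, or 14.9% against 4.27% of all genes: ddx41, dhx9, ddx18, ddx54, ddx56, ddx1 and dhx57. Every null pool was below both wild type pools in 6, or 12.8% against 5.7%: ddx42, dhx8, ddx5, ddx52, ddx6 and ddx43. Without the second stage 15 wild type pool the counts were 8, or 17% against 6.23%, and 7, or 14.9% against 7.9%. At stage 25 alone the null pools were above both wild type pools in 12 helicase genes, or 25.5% against 20.4%, and below both in 14, or 29.8% against 21.9%. At stage 35 alone they were above in 17, or 36.2% against 27.8%, and below in 15, or 31.9% against 32.7%. Over stages 25 and 35 together, which leaves out the single stage 15 null pool, they were 10, or 21.3% against 10.6%, and 11, or 23.4% against 12.5%.

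The single stage 15 null pool allowed no test within that stage. It was above both wild type pools in 13 helicase genes, or 27.7% against 24% of all genes, and below both in 14, or 29.8% against 27.7%. Both shares are near those of all genes. It had 341 CPM of dhx9, against 274 and 227 CPM in wild type pools, and 394 CPM of ddx18, against 303 and 306 CPM. For ddx43 it had 8.62 CPM, against 14.1 and 11.7 CPM in wild type pools.

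Heterozygous embryos were not told apart from wild type embryos in any helicase gene at stages 15, 25 or 35. Among all genes 0%, 0% and 0.00564% were called in these comparisons. By edgeR, an unadjusted p under 0.05 was found for 0 helicase genes at stage 15, for 2 at stage 25 (ddx43 and dhx16) and for 2 at stage 35 (ddx43 and dhx58). These are 0%, 4.26% and 4.26% of the helicases, against 4.64%, 2.83% and 1.32% of all genes, and the Wald test of DESeq2 called 0 at each stage. The log2 difference of ddx43, heterozygous from wild type, was -0.65 at stage 25 and -1.07 at stage 35 (edgeR adjusted p of 1 at both). Both heterozygous pools were below both wild type pools in 8 helicase genes at stage 25, or 17% against 15.3% of all genes, and in 6 at stage 35, or 12.8% against 10.9%. Both were above both wild type pools in 8 at stage 25, or 17% against 14.7%, and in 4 at stage 35, or 8.51% against 14.5%.

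Null embryos were also compared with heterozygous ones. At stage 25 no helicase gene was called by edgeR, against 0.0676% of all genes, with 3 at an unadjusted p under 0.05, or 6.38% against 9.62% of all genes, and the Wald test of DESeq2 called 0. At stage 35, 3 of 47 were called, all higher in null embryos, or 6.38% against 3.34% of all genes called higher, 3.65% lower and 6.98% either way. They were ddx41 with a log2 difference of 0.97, dhx9 with 0.67 and ddx18 with 0.54 (edgeR adjusted p of 0.00541, 0.0126 and 0.0341). No shares of all genes are given for the calls without 1 pool that follow. Without either heterozygous pool or without the first null pool only ddx41 was called, and without the second null pool 0 were called.

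The developmental decline took place in mutants too. From stage 25 to stage 35, 21 helicase genes fell in null embryos, or 44.7% against 21.1% of all genes, and none rose, against 23.3% (44.4% of all genes were called either way). In heterozygous embryos 24 fell, or 51.1% against 22%, and none rose, against 25.7% (47.7% either way). The median log2 change of the helicases was -0.4 in null, -0.479 in heterozygous and -0.456 in wild type embryos. Of the ribosome biogenesis genes 12 of 15 fell in null embryos and 13 of 15 in heterozygous embryos. From stage 15 to stage 25 in heterozygous embryos 21 were called, or 44.7% against 45.9%, with 6 higher and 15 lower, or 12.8% and 31.9% against 27.2% and 18.7% of all genes. No shares of all genes are given for the alternative settings that follow. With DESeq2 size factors that split was 3 higher and 17 lower, and the count was 8 without the second stage 15 heterozygous pool and 10 or 7 without the first or second stage 25 heterozygous pool.

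Genes that work beside these helicases were read from 3 lists. Of 19 names of related helicases outside the family names, some of them alternative symbols, 16 genes were tested. At stage 35, where 4.8% of all genes were higher in null embryos and 4.95% lower, the 16 had a median log2 difference of 0.0941. Of them 5 were higher and none was lower. They were aqr, an intron-binding helicase, at 2.02, snrnp200, which unwinds U4 from U6, at 1.68, mov10 at 1.58, upf1, the nonsense-mediated decay helicase, at 1.07, and eif4a3.1, of the exon junction complex, at 0.77 (edgeR adjusted p from 2.03e-05 to 0.0363). At stage 25, 3 of the 16 were higher (upf1 at 1.16, aqr at 0.97 and snrnp200 at 0.88) and none was lower. Of all genes 0.789% were higher and 0.986% lower at that stage. The gene aqr had 214 and 215 CPM in null pools, 60.7 and 53.2 CPM in heterozygous pools, and 46.7 and 59.4 CPM in wild type pools at stage 35. By contrast mov10 was at a low level at stage 35, with 3.01 and 1.67 CPM in null pools and 0.741 and 0.833 CPM in wild type pools. At stage 25 its null pools, at 8.36 and 8.13 CPM, lay between the wild type pools at 6.37 and 10.8 CPM.

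Of 28 helicase cofactors tested, 5 were higher in null embryos at stage 35 (rbm17, eif4g1, thoc1, cnot1 and tfip11, at 0.84 to 0.53) and 2 were lower, with a median of 0.116. The lower ones were casc3, the exon junction partner of EIF4A3, at -1.34, and rbm5, a splicing regulator with the G-patch that stimulates DEAH box helicases, at -0.98. TFIP11, also a G-patch protein, is the activator of DHX15. Of all genes 4.8% were higher and 4.95% lower in null embryos at stage 35. At stage 25 none of the 28 was called by edgeR, against 1.78% of all genes.

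Of 42 other ribosome biogenesis genes, 6 were higher in null embryos at stage 35 (gnl3 at 0.74, gar1 at 0.72, rrp1b at 0.67, tsr1 at 0.64, utp18 at 0.61 and rcl1 at 0.56) and none was lower. Their median log2 difference was 0.299, beside 0.269 for the 15 ribosome biogenesis helicases and -0.0323 for all genes tested. Of all genes 4.8% were higher and 4.95% lower in null embryos at that stage. In wild type embryos all 42 fell from stage 25 to stage 35, with a median log2 change of -1.01, and in null embryos 36 fell, with a median of -0.883. Of all genes 22.5% fell in wild type and 21.1% in null embryos. The wild type and null steps do not share pools, but each shares pools with the genotype comparisons.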

How the data were processed

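The authors deposited raw read counts per gene for each of 17 libraries, per the file headers. The submitters' processing notes name bcl2fastq 2.20 and STAR. The counting program, genome build, annotation and use of strand are not given in the sources used here. All 47 helicase names were present in a table of RefSeq symbols. Helicase genes, roles and lists were chosen with earlier results of these data known. The genes named were those called between genotypes, all splicing genes, the 5 largest rises and falls per wild type step, the 3 largest uncalled differences at stage 35, and called list genes.

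Genes were kept with edgeR 4.0.16 filterByExpr (minimum count 10, minimum total 15) in R 4.3.3, which left 17742. CPM values used library sizes scaled with TMM factors computed from all 17 libraries. A quasi-likelihood fit to the 16 libraries of the 8 groups with 2 pools had 8 residual degrees of freedom and gave 13 comparisons. An additive fit of stage and genotype used all 17. P-values were two-sided and adjusted by Benjamini-Hochberg over all genes in each comparison, with calls under 0.05. SEs were back-calculated from the test statistic. The code was tested on simulated data. Alternatives were DESeq2 1.42.0, its size factors, no filter, libraries of the compared stages only, a replicate term, and leaving out each library. Reads carried no molecular identifiers by the labels, so floors cover counting error only.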

Additional observations from a re-analysis of the deposited data

How the results depend on the processing

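With 2 pools a group, calls moved with single libraries. Shares of all genes called under each alternative setting are not given, so the helicase counts under those settings have no background. Leaving out 1 library gave 1 to 4 calls among the 47 helicase genes for null against wild type at stage 35 (8 as reported), 0 to 0 at stage 25 (0), 6 to 14 over all stages (12), 0 to 1 for null against heterozygous at stage 35 (3) and 0 to 0 at stage 25 (0). It gave 0 to 1 for heterozygous against wild type at stage 15 (0) and 0 to 0 at stages 25 and 35. For stage steps it gave 4 to 19 in wild type from stage 15 to 25 (13), 18 to 21 from 25 to 35 (26), 7 to 15 and 15 to 21 for these steps in heterozygotes (21 and 24), and 15 to 20 in null embryos (21). At stage 25, null against wild type had 3 calls without the filter on low counts (ddx39b, ddx42 and ddx43), 1 with libraries of that stage only (ddx42), and 3 by the DESeq2 Wald test (ddx18, ddx42 and ddx43), all against 0 as reported. Correlations of deviations of same-numbered pools ran from -0.367 to 0.0991, so no steady pairing by the replicate numbers in the labels was seen. Pairing of pools with different numbers was not tested. With a replicate block, 4 genes (ddx18, ddx41, ddx43 and dhx9) were called at stage 35 between null and wild type and 1 (ddx41) between null and heterozygous. Uncalled log2 differences of null from wild type changed sign without 1 pool. At stage 25 these values ran from -0.38 to 0.15 for ddx17 (0.15 without the second null pool, 0.072 without the first wild type pool), from -0.089 to 0.67 for ddx23, from -0.13 to 0.18 for ddx39a (-0.13 without the second null pool, -0.094 without the second wild type pool) and from -0.030 to 0.24 for dhx16. At stage 35 they ran from -0.066 to 0.26 for ddx39a, from -0.096 to 0.022 for dhx15 and from -0.35 to 0.12 for dhx35. Over the named genes and all settings, 506 values kept side and sign, 75 lost a call and 16 gained one. The cause of these changes was not tested, and leaving out a library also leaves fewer pools in the fit. The counts with every null pool above or below the wild type pools, given without 1 pool or stage, were chosen after seeing the data.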
